A study of Mus musculus x Rattus norvegicus with 2 samples.

Results

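A set of 32 genes of fatty acid and phospholipid synthesis was followed through the cell types of mouse-rat chimeric lung at E20.5. The members were chosen by symbol: all 32 were found among the 55403 mouse (mm10) features of the deposited matrices, and 31 of them among the 25399 rat (rn6) features. The mutant library came from lung that mouse (C57BL/6) donor cells built in a rat (SD) host lacking Nkx2-1, a transcription factor needed for the lung epithelium to form. The control library was made from the lung of a chimera whose rat host was wild type, with the same strain labels, in which mouse and rat cells shared the organ. Each group was 1 library of dissociated whole lung, so no difference given here has a replicate check and no test was made between the groups. Intervals are 95% exact Poisson intervals for levels and cover counting error only.

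Alveolar type 2 (AT2) cells make surfactant, a film that is mostly phosphatidylcholine with saturated acyl chains. They build fatty acids from citrate through ATP citrate lyase, acetyl-CoA carboxylase and fatty acid synthase, desaturate and elongate them, activate them to acyl-CoA and join them to glycerol, and the CDP-choline branch then adds the head group. Flat alveolar type 1 (AT1) cells form the gas exchange surface and secrete no surfactant, and fibroblasts of the alveolar wall are known to store neutral lipid.

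AT2 cells were mouse cells with Sftpc, the surfactant protein C gene, at 30000 CPM or more (counts per 1000000 mouse UMIs, unique molecular identifiers that stand for molecules). There were 691 in the mutant and 335 in the control library, with medians of 18971 and 22713 UMIs per cell. AT1 cells were mouse cells of epithelial clusters under that Sftpc limit with Ager, an AT1 surface receptor, at 1000 CPM or more. They numbered 1208 in the mutant and 269 in the control library, with medians of 9084 and 11065 UMIs. Fibroblasts came from clusters named by markers, 3485 mutant and 2221 control cells, with medians of 11289 and 9055 UMIs. Levels are CPM summed over the cells of a group, and log2 differences were taken after adding 10 CPM to both levels, which understates the differences of genes with low levels. A member counted as measured in a comparison if it reached 10 CPM in either group, and as higher or lower if the difference was 2-fold or more.

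The labels were checked against marker lists. The summed level of 8 AT2 markers was 152293 CPM in AT2 and 2396 CPM in AT1 cells of the mutant library, and 59855 CPM in AT2 and 10769 CPM in AT1 cells of the control library. Markers of AT1 cells, 6 in all, summed to 1558 CPM in AT2 and 14487 CPM in AT1 cells of the mutant library, and to 715 CPM in AT2 and 3096 CPM in AT1 cells of the control library. These sums restate the limits in part, since Sftpc alone gave 134993 CPM of the AT2 marker sum in mutant and 56523 CPM in control AT2 cells, and Ager gave 7118 CPM of the AT1 marker sum in mutant and 1636 CPM in control AT1 cells. Without Sftpc, the other 7 AT2 markers summed to 17299 CPM in AT2 and 499 CPM in AT1 cells of the mutant library, and to 3331 CPM in AT2 and 877 CPM in AT1 cells of the control library. Without Ager, the other 5 AT1 markers summed to 653 CPM in AT2 and 7369 CPM in AT1 cells of the mutant library, and to 295 CPM in AT2 and 1460 CPM in AT1 cells of the control library. In control AT1 cells this sum came mainly from Hopx, Akap5 and Clic5 (823, 314 and 290 CPM). Rtkn2 and Aqp5 stood there at 13.9 and 18.4 CPM, against 1150 and 752 CPM in mutant AT1 cells. Rtkn2 stood at 10.1 CPM in control AT2 cells. Of the AT2 markers, Sftpd stood at 15.7 CPM in control and 935 CPM in mutant AT2 cells. The control names are therefore less certain than the mutant ones. Most mutant AT2 cells fell in 1 cluster (613 of 691), and most control AT2 cells (282) and control AT1 cells (231) fell together in another cluster. Fibroblast markers summed to 13550 CPM in mutant and 11979 CPM in control fibroblasts. Dividing cell markers, 8 in all, summed to 42.8 CPM in mutant and 2373 CPM in control AT2 cells, to 33.0 and 1590 CPM in mutant and control AT1 cells, and to 172 and 1780 CPM in mutant and control fibroblasts. Rat Nkx2-1 had 0 UMIs in the 79 rat cells of the mutant library, which were mostly pericyte-like, and 3993 UMIs in the 725 rat cells of the control library. The libraries had 103627303 (mutant) and 123047433 (control) UMIs, median mitochondrial shares of 4.22% and 3.07%, and shared 29 kept barcodes. Genes with longer introns ran higher in the mutant library: in AT2 cells the median log2 difference, mutant over control, was -0.64 where introns summed to at most 2 kb and 1.22 where they passed 200 kb. Counts relative to genes of like intron length are therefore given beside the main comparisons of the libraries, and single values for some members only.

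The largest difference between AT2 cells of the libraries among the members fell on Scd1. Another member, Scd2, lies on the opposite strand of the same chromosome, mm10 chromosome 19, and encodes a near copy of the same stearoyl-CoA desaturase. Scd1 lies at chr19:44394455-44407879 on the minus strand and Scd2 at chr19:44293674-44306864 on the plus strand. Because the pair behaved differently, their sequences are shown. The 90 bases that end each coding region, from the GENCODE vM21 transcripts, differ at 12 positions, given in capitals, and the whole coding regions are identical at 89.6% of 1077 aligned positions:
Scd1: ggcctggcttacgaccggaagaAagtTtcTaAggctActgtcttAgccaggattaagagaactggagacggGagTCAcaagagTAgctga
Scd2: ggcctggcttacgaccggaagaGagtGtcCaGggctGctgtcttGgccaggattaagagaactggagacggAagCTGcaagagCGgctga
The last 500 bases of the transcript, where a 3' library reads, held no run of 91 bases shared with any other annotated gene for 31 of the 32 members. The exception was Chkb, which shares its end with the read-through model Gm44502, so its counts are uncertain. On the same strand 10 members were overlapped by another annotated gene, and on the opposite strand 17.

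AT2 cells of the mutant library had higher levels than AT1 cells of the same library for 15 of 30 measured members, and none was lower by 2-fold. Among all measured genes 7.17% were higher and 7.45% lower by 2-fold in that comparison, and the median log2 difference was 1.16 for the members and -0.10 for all genes. In the control library the same comparison gave 1 member higher of 27 measured, the malic enzyme gene Me1, and none lower, beside 1.34% higher and 2.29% lower of all genes. The median there was 0.03 for the members and -0.03 for all genes. In that library most AT1 cells lay in the same AT2-named cluster as most AT2 cells. Against fibroblasts, AT2 cells were higher for 18 and lower for 2 of 31 measured members in the mutant library (11.2% and 17.6% of all genes), and higher for 7 and lower for 2 of 29 in the control library (8.63% and 10.8% of all genes). The summed level of the 32 members was 10338 CPM in AT2 cells, 1854 CPM in AT1 cells and 1035 CPM in fibroblasts of the mutant library. In the control library it was 1791 CPM in AT2 cells, 1689 CPM in AT1 cells and 930.2 CPM in fibroblasts.

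**Figure D1:**
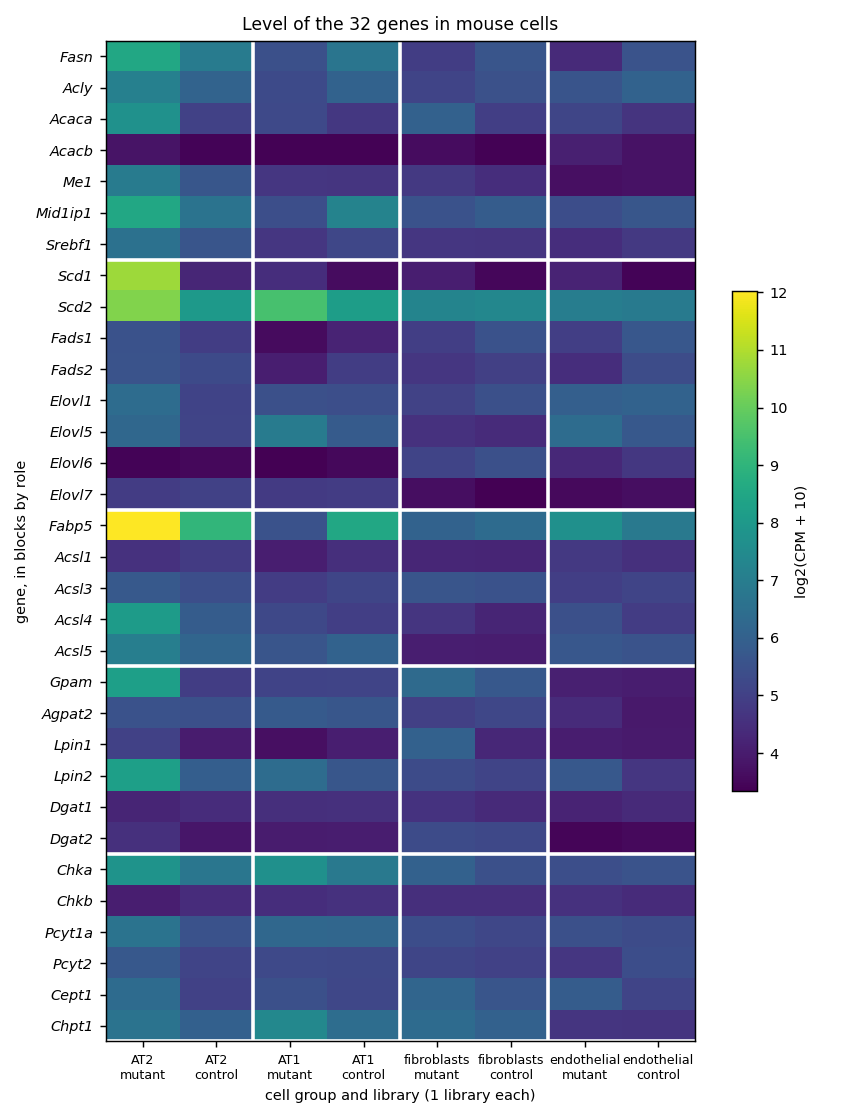
Level of each of the 32 genes as log2(CPM + 10) (colour) in 4 mouse cell groups of the mutant and control libraries (columns), with genes in blocks by role (rows). Scd1 and Fabp5 are high in mutant AT2 cells, at 1732 and 4158 CPM, and stand at 9.50 and 517 CPM in control AT2 cells.

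Between the libraries, AT2 cells had higher levels in the mutant for 17 of 30 measured members, and none was lower by 2-fold. All genes stood at 12.8% higher and 16.8% lower. Relative to genes of like intron length, 17 members were higher and none lower, against 11% higher and 9.24% lower of all genes. The sets shared 14 members: Me1, Elovl5 and Lpin1 passed 2-fold on the plain scale only, and Srebf1, Fads1 and Pcyt2 on the relative scale only. The median log2 difference of the members was 1.06, or 1.20 relative to genes of like intron length, and the median of all genes was -0.25. Sftpc itself was higher in the mutant cells that passed the limit, with a median of 137482 CPM in mutant and 53821 CPM in control AT2 cells. With AT2 cells of both libraries held to an Sftpc content of 60000 to 120000 CPM (194 mutant and 117 control cells), 16 of 30 members were higher, beside 17.4% of all genes. With cells that had no UMI of the dividing cell markers, 14 of 30 were higher, beside 14.3% of all genes, but only 22 control AT2 cells were left.

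The first enzymes of fatty acid synthesis were higher in mutant AT2 cells as a block. Of 7 members of this group 6 were measured, and all 6 were higher in AT2 than in AT1 cells of the mutant library. Fasn, the fatty acid synthase (chr11:120805846-120824547, mm10), stood at 365 CPM (354 to 375) in mutant and 113 CPM (107 to 118) in control AT2 cells, against 33.5 CPM (30.1 to 37.1) in mutant and 95.6 CPM (87.8 to 104) in control AT1 cells. The mutant AT2 value is above the other 3, and the mutant AT1 value is the lowest. Its log2 difference of AT2 over AT1 was 3.11 in the mutant and 0.21 in the control library, and that of mutant over control was 1.61 in AT2 cells and -1.28 in AT1 cells. Mid1ip1, whose product helps acetyl-CoA carboxylase to polymerise, went the same way. It stood at 364 CPM in mutant and 90.1 CPM in control AT2 cells, against 32.6 CPM in mutant and 139 CPM in control AT1 cells.

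Acaca, the cytosolic acetyl-CoA carboxylase that makes malonyl-CoA, stood at 202 CPM in mutant and 22.4 CPM in control AT2 cells, against 28.3 CPM in mutant and 16.6 CPM in control AT1 cells. With 254.9 kb of intron it is the member with the longest introns, and its log2 difference of mutant over control in AT2 cells was 2.71, or 1.66 relative to genes of like intron length. Acly, which splits citrate into acetyl-CoA, stood at 130 CPM in mutant and 58.0 CPM in control AT2 cells, against 28.9 CPM in mutant and 56.4 CPM in control AT1 cells. In control cells the AT2 and AT1 intervals of Acly overlapped (54.4 to 61.8 and 50.5 to 62.9 CPM). Me1, which supplies NADPH, stood at 112 CPM in mutant and 40.7 CPM in control AT2 cells, against 15.9 CPM in mutant and 15.3 CPM in control AT1 cells, with log2 differences of AT2 over AT1 cells of 2.24 in the mutant and 1.01 in the control library. The control value lay at the limit, and was under it with an Sftpc limit of 60000 CPM (0.97), species limits of 95% and 5% (0.99), thinned cells (0.58) or the 22 control AT2 cells with no dividing cell UMI (0.024). Its mutant over control difference in AT2 cells was 1.27, or 0.63 relative to genes of like intron length. Srebf1, the gene of the transcription factor that drives lipogenic genes, stood at 85.9 CPM in mutant and 39.3 CPM in control AT2 cells, against 16.01 CPM in mutant and 26.1 CPM in control AT1 cells. Between the libraries its AT2 difference of 0.96 missed the limit. Acacb, the carboxylase at the mitochondrial surface, did not reach 10 CPM in either library in AT2 cells, AT1 cells or fibroblasts.

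Scd1 had the widest difference between the libraries. It stood at 1732 CPM (1709 to 1755, 22500 UMIs) in mutant and 9.50 CPM (8.06 to 11.1, 154 UMIs) in control AT2 cells, against 12.2 CPM (10.2 to 14.5) in mutant and 2.23 CPM (1.19 to 3.81) in control AT1 cells. Fibroblasts had 6.57 CPM in the mutant and 1.26 CPM in the control library, while Sftpc, which fibroblasts do not make, averaged 458 and 527 CPM in the non-epithelial cells of the mutant and control libraries. The log2 difference of mutant over control in AT2 cells was 6.48, and that of AT2 over AT1 cells was 6.29 in the mutant library. After every cell was thinned to 2000 UMIs, 75.9% of mutant and 2.21% of control AT2 cells had a Scd1 UMI, against 1.23% of mutant and 0.229% of control fibroblasts. The unthinned shares were 90.2% of mutant and 25.97% of control AT2 cells, against 6.89% of mutant and 1.08% of control fibroblasts. The thinned shares rest on the 672 mutant and 317 control AT2 cells with at least 2000 UMIs.

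Scd2 was present in every group and differed less. It stood at 1319 CPM in mutant and 244 CPM in control AT2 cells, and at 719.9 CPM in mutant and 282 CPM in control AT1 cells, with 143 CPM in mutant and 154 CPM in control fibroblasts. Its AT2 over AT1 difference of 0.86 in the mutant library missed the limit, while its mutant over control difference was 2.39 in AT2 and 1.32 in AT1 cells. Scd1 was thus high in the AT2 cells of the mutant library, and Scd2 ran higher in both alveolar cell types of the mutant library.

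The polyunsaturated fatty acid desaturases Fads1 and Fads2 were higher in AT2 than in AT1 cells of the mutant library, by log2 1.92 and 1.51, at lower levels. Fads1 stood at 35.6 CPM in mutant and 19.9 CPM in control AT2 cells, against 2.04 CPM in mutant and 8.24 CPM in control AT1 cells. Fads2 stood at 37.5 CPM in mutant and 29.3 CPM in control AT2 cells, against 6.66 CPM in mutant and 20.1 CPM in control AT1 cells. Both differed by less than 2-fold between the libraries, in AT2 cells (0.61 and 0.27) and in AT1 cells (-0.60 and -0.85). Of the elongases, Elovl1, which acts on very long chains, stood at 75.6 CPM in mutant and 24.1 CPM in control AT2 cells, against 34.1 CPM in mutant and 32.4 CPM in control AT1 cells. Elovl5, which elongates polyunsaturated chains, had its higher level in AT1 cells: 65.4 CPM in mutant and 24.9 CPM in control AT2 cells, against 113 CPM in mutant and 47.0 CPM in control AT1 cells. Its mutant over control difference was 1.11 in AT2 cells and 1.11 in AT1 cells, and passed 2-fold relative to genes of like intron length in neither. Elovl7 lay between 18.2 and 22.3 CPM in the 4 alveolar groups and was at or under 2.70 CPM in fibroblasts. Elovl6, which extends palmitate to stearate, was at or under 1.60 CPM in AT2 and AT1 cells of both libraries, against 24.9 CPM in mutant and 33.8 CPM in control fibroblasts, so it was lower in AT2 cells than in fibroblasts in both libraries (-1.70 in the mutant and -1.92 in the control).

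Fabp5, a fatty acid binding protein that carries acyl chains in the cytosol, moved in opposite directions in the alveolar cell types. It stood at 4158 CPM (54024 UMIs) in mutant and 517 CPM (506 to 529) in control AT2 cells, against 35.6 CPM (32.1 to 39.4) in mutant and 365 CPM (350 to 381) in control AT1 cells. The mutant AT2 level is the highest of these 4 groups and the mutant AT1 level the lowest. The log2 difference of mutant over control was 2.98 in AT2 cells and -3.04 in AT1 cells, and that of AT2 over AT1 was 6.51 in the mutant and 0.49 in the control library. The control AT1 cells also carried more AT2 marker RNA (10769 CPM) than the mutant AT1 cells (2396 CPM), and the part of this in the Fabp5 value was not tested. In thinned cells 91.2% of mutant and 62.5% of control AT2 cells had a Fabp5 UMI, against 6.41% of mutant and 38.1% of control AT1 cells.

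The acyl-CoA synthetases, which activate fatty acids, split into a pair that was higher in AT2 than in AT1 cells of the mutant library and a pair that was not. In the control library neither pair passed 2-fold over AT1 cells. Acsl4, which prefers arachidonate, stood at 268 CPM in mutant and 48.5 CPM in control AT2 cells, against 27.7 CPM in mutant and 21.1 CPM in control AT1 cells. Acsl5, a synthetase of mitochondria and endoplasmic reticulum, stood at 124 CPM in mutant and 62.1 CPM in control AT2 cells, against 39.6 CPM in mutant and 57.5 CPM in control AT1 cells. Both were also higher in AT2 cells than in fibroblasts, by log2 3.45 and 2.98 in the mutant and 1.63 and 2.14 in the control library. Acsl1 and Acsl3 differed by less than 2-fold between mouse AT2 cells and AT1 cells or fibroblasts of either library, and between the libraries in AT2 cells, with AT2 levels of 14.0 and 44.3 CPM in the mutant and 18.5 and 33.1 CPM in the control library.

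In glycerolipid assembly 1 gene of the first step, Gpam, stood out. Gpam, the mitochondrial acyltransferase that adds the first acyl chain to glycerol-3-phosphate (chr19:55067268-55127238, mm10), stood at 292 CPM (283 to 302) in mutant and 20.3 CPM (18.2 to 22.6) in control AT2 cells, against 23.9 CPM (21.0 to 27.0) in mutant and 24.5 CPM (20.7 to 28.9) in control AT1 cells. Mutant AT2 cells stood apart from the other 3 groups, whose intervals overlapped. The mutant over control difference was 3.32 in AT2 cells (3.18 relative to genes of like intron length) and -0.03 in AT1 cells. The other glycerol-3-phosphate acyltransferase genes read, Gpat4 and Gpat3, lie outside the set and did not pass 2-fold. Gpat4 stood at 17.4 CPM in mutant and 27.7 CPM in control AT2 cells (-0.46), and Gpat3 at 2.23 and 0.74 CPM. Lpin2, a phosphatidate phosphatase that makes diacylglycerol, stood at 292 CPM in mutant and 50.5 CPM in control AT2 cells, against 74.4 CPM in mutant and 40.7 CPM in control AT1 cells. Its relative Lpin1 was low in AT2 cells, 22.7 CPM in the mutant and 5.80 CPM in the control, and stood at 2.78 CPM in mutant and 6.86 CPM in control AT1 cells. In the mutant library Lpin1 was higher in fibroblasts (56.3 CPM) than in AT2 cells, and its highest level lay in myofibroblast-like cells (178 CPM). Against the alveolar fibroblast-like clusters alone its AT2 difference was 0.30 in place of -1.02.

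Other acyltransferases of glycerolipid assembly did not pass 2-fold between AT2 and AT1 cells. Agpat2, which adds the next acyl chain, lay between 34.3 and 45.6 CPM in the alveolar groups and also differed by less than 2-fold between AT2 cells and fibroblasts of either library. The diacylglycerol acyltransferase genes Dgat1 and Dgat2, whose enzymes make triacylglycerol, were at or under 13.2 CPM in AT2 cells and had their highest levels in macrophage-like cells of both libraries (108 and 48.4 CPM in the mutant, 37.5 and 44.1 CPM in the control). Dgat2 was lower in AT2 cells than in fibroblasts of the control library (4.51 and 27.3 CPM, log2 difference -1.36), and stood at 13.2 and 29.9 CPM in those cells of the mutant library.

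In the choline and ethanolamine branch none of the 6 members differed by 2-fold between AT2 and AT1 cells in either library. Between the libraries 3 of the 6 were higher in mutant AT2 cells, against 12.8% of all genes, and none passed 2-fold in AT1 cells. Chka, the choline kinase, stood at 213 CPM in mutant and 96.8 CPM in control AT2 cells, and at 198 CPM in mutant and 106 CPM in control AT1 cells. Pcyt1a, whose enzyme makes CDP-choline and sets the rate of phosphatidylcholine synthesis, stood at 89.9 CPM in mutant and 35.7 CPM in control AT2 cells, and at 65.5 CPM in mutant and 63.1 CPM in control AT1 cells. Cept1, the choline and ethanolamine phosphotransferase, stood at 73.8 CPM in mutant and 22.6 CPM in control AT2 cells, and at 34.2 CPM in mutant and 26.8 CPM in control AT1 cells. Their mutant over control differences in AT2 cells were 1.06, 1.13 and 1.36. Chka was also higher in AT2 cells than in fibroblasts, by log2 1.78 in the mutant and 1.28 in the control library. Chpt1, the choline phosphotransferase, had its higher level in AT1 cells of both libraries, with 89.8 CPM in mutant and 53.7 CPM in control AT2 cells, and 160 CPM in mutant and 76.9 CPM in control AT1 cells. Pcyt2 of the ethanolamine route stood at 42.6 CPM in mutant and 24.4 CPM in control AT2 cells, and Chkb, whose counts are uncertain, at 6.70 and 11.9 CPM.

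**Figure D2:**
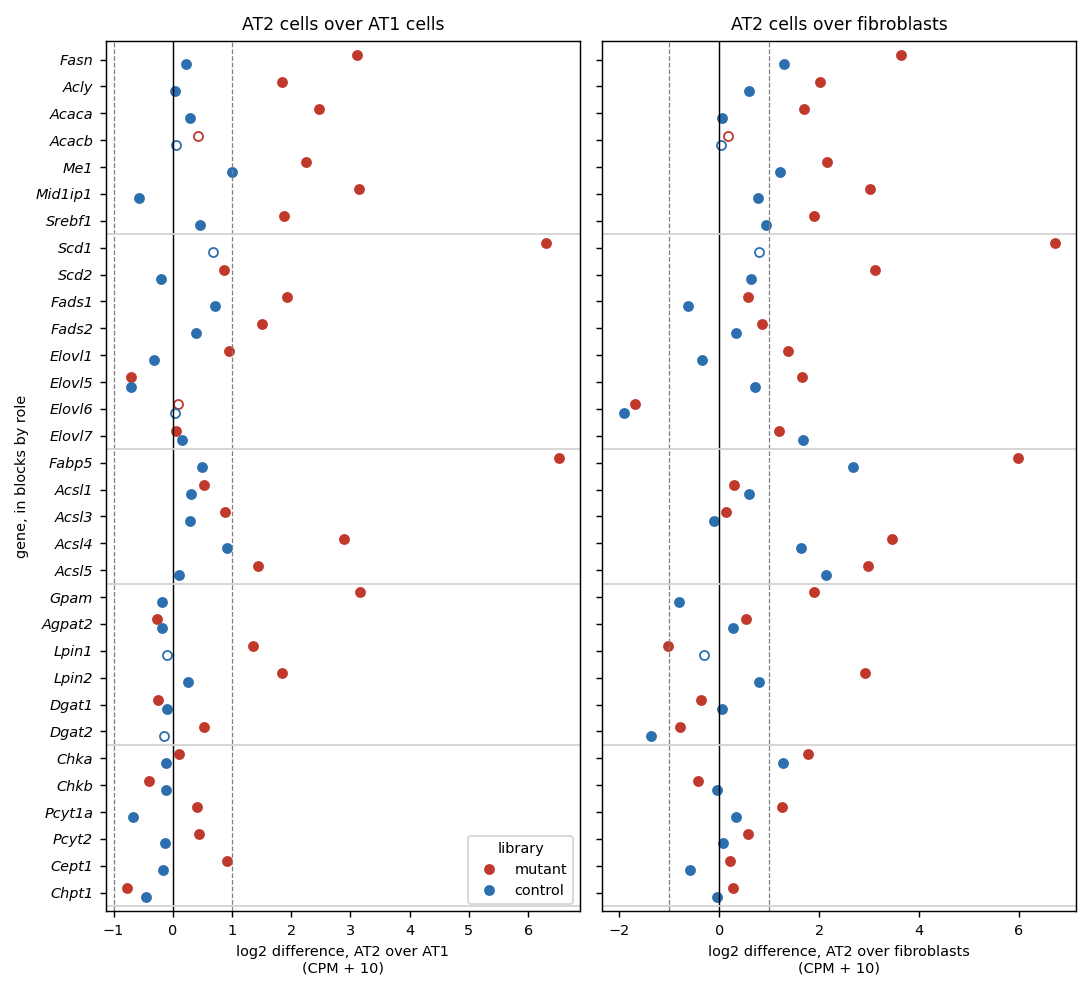
Log2 difference of each gene, AT2 cells over AT1 cells (left) and over fibroblasts (right), in the mutant (red) and control (blue) library, with open circles for genes under 10 CPM in both groups and dashed lines at 2-fold. Over AT1 cells, 15 red points and 1 blue point lie past the 2-fold line to the right.

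The genes were also ranked across the cell groups of each library with at least 20 cells, 14 in the mutant and 10 in the control. Ciliated-like, myofibroblast-like, aerocyte-like and arterial-like cells were ranked in the mutant library only. The share of all genes with their highest level in AT2 cells was not computed, so the counts below cannot be set against it. AT2 cells had the highest level for 16 members in the mutant library: Fasn, Acly, Acaca, Mid1ip1, Srebf1, Scd1, Scd2, Elovl1, Elovl7, Fabp5, Acsl4, Acsl5, Gpam, Lpin2, Pcyt1a and Pcyt2. In the control library AT2 cells ranked first for 6 members, Fasn, Srebf1, Scd1, Acsl4, Acsl5 and Lpin2. Some of these leads were narrow. In the mutant library Elovl1 stood at 75.6 CPM in AT2 cells and 71.9 CPM in aerocyte-like cells. In the control library Acsl5 stood at 62.1 CPM in AT2 cells and 61.9 CPM in macrophage-like cells. Control Scd1 was under the 10 CPM limit in every group, with 9.50 CPM in AT2 cells and 5.69 CPM in pericyte-like cells. Fabp5 stood at 517 CPM in AT2 cells and 567 CPM in macrophage-like cells of the control library, while mesothelial-like cells were next after AT2 cells in the mutant library at 751 CPM.

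Outside the AT2 cells fewer members passed 2-fold between the libraries, at most 6 higher and 3 lower in any cell group read. In AT1 cells, 2 of 27 measured members were higher in the mutant, Scd2 and Elovl5, and 3 were lower, Fasn, Mid1ip1 and Fabp5, against 10.6% higher and 11.9% lower of all genes. Under another scaling (trimmed mean of M values) 6 members were higher, and of all genes past 2-fold in AT1 cells 67.4% were higher under it, in place of 47.2%. The share of all measured genes that were higher under that scaling is not given, so the 6 members cannot be set against it. Relative to intron length, Scd1, Scd2 and Chka were higher and Mid1ip1 and Fabp5 lower in AT1 cells, 3 and 2 members, against 8.63% and 6.28% of all genes. In fibroblasts, 2 of 27 were higher, Acaca and Lpin1, and none lower, against 11.8% and 5.92%. Acaca stood at 55.3 CPM in mutant and 21.1 CPM in control fibroblasts, and its difference of 1.07 became -0.054 when set against genes with introns of similar length. On that relative scale Lpin1 was the member left past 2-fold in fibroblasts, with none lower, against 6.57% and 4.49% of all genes. The fibroblasts of the libraries lay in different clusters: 2027 mutant cells in an alveolar and 1016 in a myofibroblast-like cluster, and 1799 control cells in another alveolar cluster and 1 in the myofibroblast-like one. In the alveolar fibroblast-like clusters alone none of 28 members was higher or lower, against 10.2% and 7.77% of all genes, nor relative to intron length (6.84% and 4.99% of all genes), and Lpin1 stood at 16.6 CPM in mutant and 9.50 CPM in control cells. Mutant and control fibroblasts also differed in genes induced by dissociation, of which 5 of 8 were higher in the mutant (8069 CPM in mutant and 4467 CPM in control fibroblasts, summed), and the part of this in the values was not tested. In endothelial cells, 1 of 25 was higher, Lpin2 (42.5 CPM in mutant and 16.1 CPM in control cells), and 1 lower, Fasn (10.9 CPM in mutant and 36.8 CPM in control cells), against 10.6% and 3.83%. These cells too lay in different clusters: 1195 mutant cells in a general capillary-like and 325 in an aerocyte-like cluster, and 874 control cells in another general capillary-like cluster and 740 in a shallow cluster led by Ccl21a (median 1543.5 UMIs). Relative to intron length, 1 was higher, Fabp5, and 1 lower, Elovl6, in endothelial cells, against 4.56% and 2.3%. In general capillary-like cells alone, 2 of 25 were higher, Fabp5 and Lpin2, and 2 lower, Fasn and Fads2, against 9.83% and 3.18% of all genes. Relative to intron length Fabp5 was higher and Fads2 and Elovl6 lower in these cells, 1 and 2 members, against 4.13% and 1.87%. There Fabp5 stood at 249 CPM in mutant and 102 CPM in control cells, and Fasn at 11.7 CPM in mutant and 37.1 CPM in control cells. The median log2 difference of the members was 0.04 in AT1 cells, 0.11 in fibroblasts and 0.04 in endothelial cells. In secretory-like airway cells, 74 mutant and 169 control cells, 4 of 26 members were higher, Me1, Acsl4, Gpam and Lpin2, and none lower, against 8.67% and 4.5% of all genes. Relative to intron length 3 were higher, without Gpam, and none lower, against 5.44% and 2.77%. Me1 stood at 118 CPM in mutant and 36.02 CPM in control secretory-like cells, and Lpin2 at 132 CPM in mutant and 45.1 CPM in control cells. In epithelial cells outside both limits, which include the secretory-like cells, 6 of 29 were higher, Acaca, Me1, Scd1, Acsl3, Lpin2 and Chka, and 1 lower, Fabp5, against 16.6% and 7.88% of all genes. Relative to intron length Scd1, Acsl3, Lpin2 and Chka were higher and Fads2 lower, 4 and 1 members, against 12.5% and 5.5%. Acsl3 stood there at 197 CPM in 240 mutant cells, 61 of them ciliated-like, and at 45.7 CPM in 598 control cells. Adventitial fibroblast-like cells had 1 of 26 members higher and none lower, against 9.89% and 4.04% of all genes. Smooth muscle-like cells had 2 of 27 higher and 1 lower, against 9.5% and 5.07%, and pericyte-like cells 1 of 28 higher and 1 lower, against 11.1% and 3.83%. In mesothelial-like cells, 26 mutant and 31 control cells, 3 of 27 were higher and 1 lower, against 10.6% and 5.68%. Acaca was among the higher members in each of these 4 groups and did not pass 2-fold relative to intron length in any of them. Macrophage-like cells had 2 of 27 higher and 2 lower, against 15.5% and 5.61%, and Fabp5 among the lower stood at 238 CPM in mutant and 567 CPM in control cells but did not pass 2-fold relative to intron length. All of these comparisons used the same pair of libraries.

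**Figure D3:**
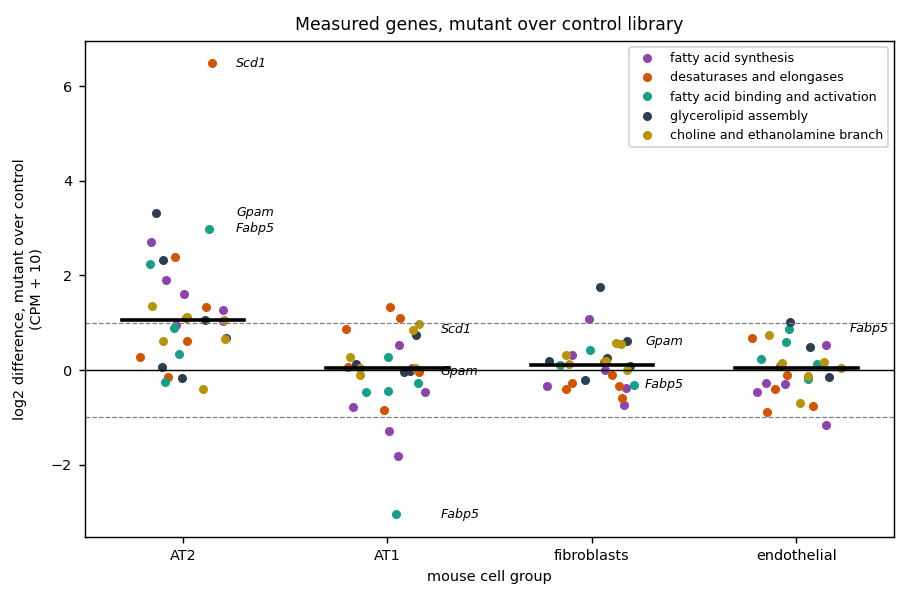
Log2 difference, mutant over control library, of the measured genes in 4 mouse cell groups, coloured by role, with black bars at the medians and dashed lines at 2-fold. The median is 1.06 in AT2 cells and between 0.04 and 0.11 in the other 3 groups, and Fabp5 lies at 2.98 in AT2 and at -3.04 in AT1 cells.

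Among the AT2 cells of the mutant library, Scd1 and Fabp5 rose with Sftpc content. Scd1 stood at 673 CPM in the 53 mutant cells with Sftpc of 30000 to 60000 CPM, at 1467 CPM in the 194 with 60000 to 120000 and at 1926 CPM in the 444 above that. In the control library Scd1 stood at 6.56 CPM in 208 cells, 13.8 CPM in 117 cells and 15.8 CPM in 10 cells of those ranges, the last from 1 UMI of Scd1. Scd1 was thus lower in every control range than in the lowest mutant range. Fabp5 stood at 695 CPM, 3321 CPM and 4782 CPM along the mutant ranges, and at 512 CPM, 525 CPM and 489 CPM along the control ranges. Chka did not climb in the same way, with 233, 249 and 196 CPM in the mutant. Just outside and just inside the Sftpc limit (20000 to 30000 and 30000 to 40000 CPM), Scd1 stood at 589 and 351 CPM in 24 and 22 mutant cells, and at 4.64 and 4.77 CPM in 97 and 83 control cells. Across all members, the median log2 difference of inside over outside was -0.21 in the mutant library (from -1.01 to 1.31). In the control library it was -0.09 (from -0.57 to 0.52). Of the mutant AT2 cells, 166 also passed the Ager limit, and in these Scd1 stood at 796 CPM, against 2011 CPM in the other 525. In the control library 23 AT2 cells passed it.

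**Figure D4:**
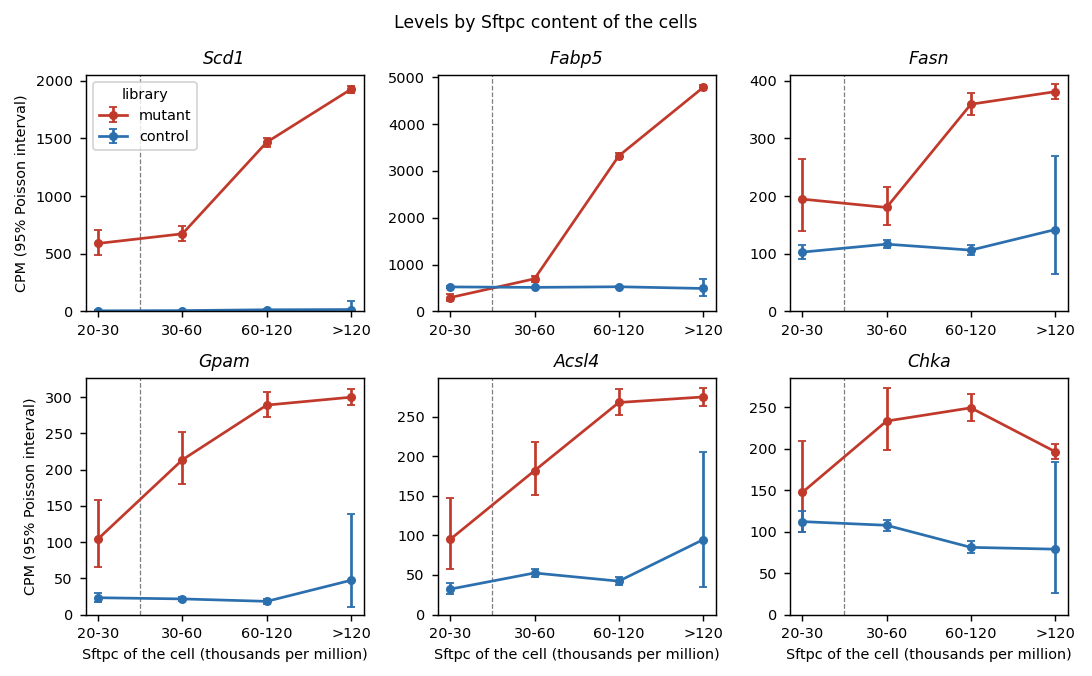
Level (CPM, with 95% Poisson intervals) of 6 genes in mouse cells by Sftpc content (in units of 1000 CPM), in the mutant (red) and control (blue) library, with the dashed line at the AT2 limit. Mutant Scd1 and Fabp5 reach 1926 and 4782 CPM in the range with most Sftpc. Control Scd1 lies between 6.56 and 15.8 CPM and control Fabp5 between 489 and 525 CPM in the ranges past the limit.

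Other genes of the pathways were read from lists beside the members, in AT2 over AT1 cells. Of 24 other fatty acid synthesis genes, 12 were measured in the mutant library, 4 were higher and 1 lower, and in the control library 1 was higher and 1 lower of 12. All genes stood at 7.17% higher and 7.45% lower in the mutant library, and at 1.34% and 2.29% in the control library. Cd36, a fatty acid uptake receptor, stood at 469 CPM in mutant and 38.8 CPM in control AT2 cells, against 6.94 CPM in mutant and 14.6 CPM in control AT1 cells. Acot7, an acyl-CoA thioesterase, and Hacd3, a dehydratase of chain elongation, were also higher in the mutant library (log2 differences 2.06 and 1.47), and Fads3 was lower (-1.79). In the control library the 2 genes past the limit were Acot7 (1.19) and Fads3 (-1.15), and Hacd3 stood at 0.28. For mutant over control in AT2 cells, Cd36, Acss2 and Hacd3 of this list were higher (3.30, 1.56 and 1.25). Tecr was lower (-1.22, 164 CPM in mutant and 395 CPM in control AT2 cells). Of 15 regulators, 4 were higher and none lower of 11 measured in the mutant library, beside 7.17% and 7.45% of all genes. In the control library 1 was higher and none lower of 10, beside 1.34% and 2.29%. Cebpa, a transcription factor of differentiating AT2 cells and adipocytes, stood at 236 CPM in mutant and 72.5 CPM in control AT2 cells, against 7.12 CPM in mutant and 22.5 CPM in control AT1 cells. Insig1, which retains the sterol sensor in the endoplasmic reticulum and is itself a target of that pathway, stood at 167 CPM in mutant and 32.5 CPM in control AT2 cells, against 29.9 CPM in mutant and 32.6 CPM in control AT1 cells. Ppargc1a and Pparg were higher by log2 2.64 and 1.08 in the mutant library.

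Of 31 other phospholipid genes, 21 were measured in the mutant library, 2 were higher and 3 lower in AT2 than in AT1 cells, with a median of -0.18, beside 7.17% higher and 7.45% lower of all genes. Of 24 measured in the control library 1 was higher and 1 lower, beside 1.34% and 2.29%. Lpcat1, the acyltransferase that remodels phosphatidylcholine of surfactant, was higher in AT2 cells of both libraries, with 1004 CPM in mutant and 389 CPM in control AT2 cells, against 71.9 CPM in mutant and 114 CPM in control AT1 cells. Mboat2, Cdipt and Slc44a2, which act in lysophospholipid acylation, phosphatidylinositol synthesis and choline transport, were lower in mutant AT2 cells than in mutant AT1 cells (-1.76, -1.64 and -1.56). Of these Slc44a2 was also lower in the control library (-1.12). For mutant over control in AT2 cells, Cds1, Lpcat1 and Lpcat3 of this list were higher (2.28, 1.34 and 1.24) and Ptpmt1 was lower (-1.07). Of 20 fatty acid oxidation genes, 2 were higher and none lower of 18 measured in the mutant library, Echs1 and Hadh (1.43 and 1.05), beside 7.17% and 7.45% of all genes, and 1 was lower and none higher of 16 in the control library, beside 2.29% and 1.34%.

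Rat cells of the control library gave a reading of the same genes in host cells. The mouse Sftpc limit took in only 1 rat cell, so rat AT2-like cells were those of 2 clusters named by AT2 markers, 161 cells with a median of 14472 UMIs, and were set against 293 rat fibroblast-like cells. Their AT2 markers summed to 10457 CPM of rat UMIs, against 19.0 CPM in the rat fibroblasts. The smaller of the clusters (72 cells) was led by Ccl20, Rnd1 and Areg, genes of a chemokine, a small GTPase and a growth factor. None of the 79 rat cells of the mutant library fell in an epithelial cluster. Of 21 measured members, 8 were higher in rat AT2-like cells than in rat fibroblasts and none lower, against 9.37% and 9.65% of all rat genes: Acly, Srebf1, Fabp5, Acsl1, Acsl4, Acsl5, Lpin2 and Chka. Lpin2 stood at 103 CPM in rat AT2-like cells and 28.5 CPM in rat fibroblasts, Acsl4 at 85.01 and 18.2 CPM, and Fabp5 at 415 and 201 CPM. All 21 were also measured in mouse cells of that library, where 4 of these 8, Fabp5, Acsl4, Acsl5 and Chka, were higher in AT2 cells than in fibroblasts, and the other 4 were higher by 2-fold in rat only. The share of all genes past 2-fold in both species, or in only 1, was not computed. The fibroblasts differed by name, with 188 adventitial-like and 105 myofibroblast-like rat cells, but 1809 alveolar-like cells of 2221 in mouse. The rat names are uncertain. Among adventitial-like rat clusters, that of 118 cells was led by genes including G0s2 and Hsd11b1, and that of 48 cells by Nebl, Wnt2 and Snai2. These genes also led mouse clusters named alveolar. The rat cluster of 22 cells shared Ptn and Col1a1 with a mouse cluster named adventitial. In rat, Fabp5 lay just past the limit and Fasn just under it. Fasn and Me1 were higher by 2-fold in mouse only, and Fasn stood at 90.7 CPM in rat AT2-like cells and 42.5 CPM in rat fibroblasts, Me1 at 14.4 and 5.32 CPM.

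**Figure D5:**
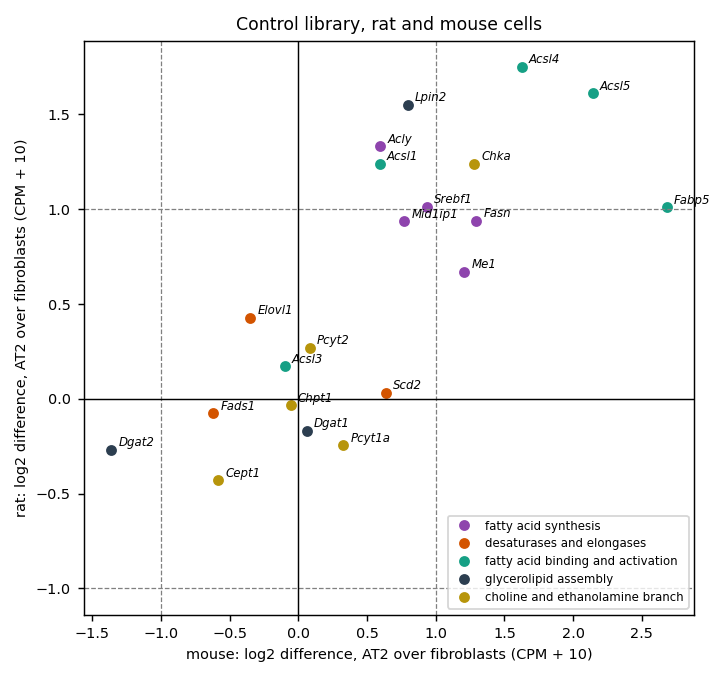
Log2 difference of AT2 cells over fibroblasts in rat (vertical) and mouse (horizontal) cells of the control library for the 21 genes measured in both, coloured by role, with dashed lines at 2-fold. Fabp5, Acsl4, Acsl5 and Chka lie past 2-fold in both species, and Fabp5 lies at 1.01 in rat and 2.68 in mouse cells.

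Between rat AT2-like and mouse AT2 cells of the control library, 2 of 28 measured members were higher in rat, Acly and Elovl1, and 9 were lower, against 8.75% and 14% of genes present under the same symbol. Acly stood at 140 CPM in rat and 58.0 CPM in mouse cells. Of the 9 that were lower, Acaca, Fads2, Elovl5, Elovl7, Gpam and Agpat2 were under 10 CPM in rat cells, and all 6 stayed under 10 CPM in every rat cell group read in the control library. The levels come from different gene annotations, and no rat annotation was used here, so the part of this in the differences was not tested. The rat gene listed as Scd, not Scd1, stood at 2.18 CPM in rat AT2-like cells and 0 CPM in rat fibroblasts, where 3 UMIs would have been 1.14 CPM.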

How the data were processed

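Lung cells of 1 mutant and 1 control chimera were profiled by droplet single-cell RNA-seq. The values deposited by the authors are whole-number UMI counts for each gene in each barcode, with no scaling. Cell Ranger 7.0.1 made the mutant and 6.0.1 the control matrix, per the file headers. Whether reads in introns were counted is not given in the sources used here. Builds mm10 and rn6 and Seurat 4.3 are named per the submitters' processing notes.

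Barcodes with at least 500 genes and at most 20% mitochondrial UMIs were kept, and called mouse at 90% or more mouse UMIs and rat at 10% or less. Cells with a Scrublet score of 0.2 or more were removed (356 mutant and 154 control mouse cells), leaving 8498 mutant and 7260 control mouse cells. Cells of both libraries were clustered together per species with Scanpy 1.11.5 (2000 variable genes, 30 components, 15 neighbours, Leiden resolution 1), and clusters took names, written "-like", from marker lists. Gates, levels and the 2-fold limit are as given in the report. With 1 library per group no p-value was computed. Intron lengths came from GENCODE vM21 for 99.5% of mouse features, in 30 bins. The calculation was tested on simulated counts. The members, lists and limits were chosen with earlier results of these data known. Values were given in full for members past 2-fold for AT2 over AT1 cells in either library or for mutant over control in AT2 cells. Up to 4 genes past 2-fold for AT2 over AT1 cells were named from each pathway list. The rat AT2-like clusters replaced the Sftpc gate after the data were seen. Alternatives were another pseudocount, gates, scaling, thinning, species limits and filters.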

Additional observations from a re-analysis of the deposited data

Results flagged for a closer look

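Some members differed between the libraries in opposite directions in different cell types, and these contrasts were not tested, since each rests on 1 library per group. Fabp5 was higher in the mutant by log2 2.98 in AT2 cells and lower in AT1 cells (-3.04). Mid1ip1 was higher by 1.90 in AT2 cells and lower in AT1 cells (-1.81). Fasn was higher by 1.61 in AT2 cells and lower in AT1 cells (-1.28) and in endothelial cells (-1.16). Relative to genes of like intron length, Fasn stayed past 2-fold in AT2 cells but not in AT1 or endothelial cells. Fabp5 and Mid1ip1 stayed past 2-fold in AT2 and AT1 cells on that scale. Most control AT1 cells (231 of 269) lay in the cluster named AT2, and the part of this in the AT1 values was not tested.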

How the results depend on the processing

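No paired analysis was possible because each group has 1 library. Of 212 counts of members under alternative settings, 192 stayed within 1.5 times the reported count, and of 1021 alternative values of members past 2-fold, 961 stayed past it and 2 changed sign: Lpin1 for AT2 over fibroblasts in the mutant against alveolar fibroblast clusters alone (0.30), and Acaca for mutant over control in fibroblasts relative to genes of like intron length (-0.054). The causes were not tested. Alternatives set after seeing the data were the Sftpc range, the dividing cell filter, a control cluster (559 cells) added to the fibroblasts and a rat cluster left out.

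The counts that moved were small ones. They are given here without the shares of all genes past 2-fold under the same settings. The counts alone therefore cannot show whether a change is particular to the members. Members higher in AT2 over AT1 cells of the control library numbered 3 with a pseudocount of 1 CPM, an Ager gate of 2000 or no dividing cell UMI, 2 under the other scaling, and 0 with an Sftpc gate of 60000 or species limits of 95% and 5%; those lower numbered 1 in thinned cells and with Sftpc of 60000 to 120000. Members lower in AT2 cells over fibroblasts of the mutant numbered 1 with AT2 cells under the Ager limit, no doublet removal, the other scaling or no dividing cell UMI. For mutant over control, members higher in AT1 cells numbered 4 with a pseudocount of 1, 1 with an Sftpc gate of 10000 and 6 under the other scaling; those higher in fibroblasts numbered 0 against alveolar clusters alone and 1 relative to intron length; and in endothelial cells 2 were higher and 2 lower with a pseudocount of 1. Members higher in rat than mouse AT2 cells numbered 4 with a pseudocount of 1. The other scaling shifted all genes by 0.11 (AT2 over AT1, mutant), 0.22 (AT2 over fibroblasts, mutant), 0.13 (AT2, mutant over control) and 0.23 (AT1, mutant over control).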

Other observations

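Some members had their highest level outside the alveolar cells. Acsl3 stood at 386 CPM in the ciliated-like cells of the mutant library and at 70.6 CPM in pericyte-like cells, the next group. Fads2 was highest in mesothelial-like cells of both libraries, at 125 CPM in the mutant and 184 CPM in the control. Gpam was highest in smooth muscle-like cells of the control library (71.3 CPM), where AT2 cells stood at 20.3 CPM. Elovl6 stood at 40.9 CPM in macrophage-like cells (55 cells, interval 28.2 to 57.5 CPM) and 40.8 CPM in adventitial fibroblast-like cells of the mutant library, a difference within counting error, and was highest in adventitial fibroblast-like cells of the control library (49.4 CPM).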
